A study of Mus musculus with 8 samples.

Results

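Osteoblasts of the petrous temporal bone (PTB) were examined by single-nucleus RNA sequencing in wild-type (WT) and Tbx1+/- mouse pups at postnatal day 5.5. The members were all nuclei to which the deposited annotation of this bone gives the label Osteoblasts, found in the count matrices by library and barcode. There were 5813 of them among 31076 annotated nuclei, with 1456 in WT batch 1, 1865 in Tbx1+/- batch 1, 1198 in WT batch 2 and 1294 in Tbx1+/- batch 2. The Tbx1+/- pups carried 1 inactive copy of Tbx1 in every cell from conception, with no Cre and no cell type restriction, and the WT pups were littermates. The Tbx1+/- line had been backcrossed onto the C57BL/6J background, and both sexes were used. Each library was a pool of bones from 5 mice, so it averages over animals, and there were 2 libraries a genotype. The study describes 2 separate batches of animals, and the number that the labels give each library was taken as its batch. The comparison asks whether transcription or abundance of its osteoblasts differed between the genotypes.

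Osteoblasts make bone. They descend from mesenchymal progenitors or, in bones formed on a cartilage model such as the PTB, partly from hypertrophic chondrocytes, and Runx2 and then Sp7 are required for their formation. They secrete type I collagen and non-collagenous matrix proteins, mineralise this matrix with tissue-nonspecific alkaline phosphatase, and either die, line the bone or become buried as osteocytes. They also set the number of osteoclasts, the bone-resorbing cells, through the cytokine RANKL and its decoy receptor osteoprotegerin.

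The osteoblast nuclei held 7097845 to 9119683 UMIs (unique molecular identifiers, counted once per captured transcript) in each library, with a median of 4339.5 to 5356 UMIs and 2239.5 to 2488.5 genes a nucleus. Levels are given as CPM, the UMIs of a gene scaled to a total of 1000000 UMIs over all osteoblast nuclei of a library. Levels are not compared between genes, since intronic reads were counted and longer genes can yield more of them. Mitochondrial UMIs made up 1.52% in WT batch 1, 0.984% in Tbx1+/- batch 1, 0.591% in WT batch 2 and 0.714% in Tbx1+/- batch 2. WT batch 1 therefore stood highest in this measure, as it did in most of the matrix genes described below. Pairs of libraries shared 11 to 26 annotated barcodes and 0 or 1 osteoblast barcode. The deposited counts had not been corrected for free RNA, so the 1559 osteoclast nuclei, which should lack osteoblast transcripts, served as the measure of that background.

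The annotation was set beside the marker genes Bglap, Alpl and Sp7. Bglap, which encodes the matrix protein osteocalcin, was at 1442 CPM in WT batch 1, 589 in Tbx1+/- batch 1, 741 in WT batch 2 and 929 in Tbx1+/- batch 2, with a mean of 925 ± 372 (SD, n = 4), against a mean of 202 in osteoclasts. Alpl, the alkaline phosphatase, was at 662, 605, 676 and 633 CPM in the same order, with a mean of 644 ± 31.3 against 97.0 in osteoclasts. Sp7, the transcription factor osterix, was at 323, 331, 371 and 373 CPM, with a mean of 350 ± 26.1 against 51.8. All 3 markers were higher in osteoblasts than in each of the other 14 annotated types in 4 of 4 libraries. The study curated its labels by marker genes, so these levels describe the label and cannot test it. The next type was matured osteoblasts/osteocyte for Bglap (416 CPM) and Sp7 (305 CPM), and the first class of chondrocyte progenitors (CP1) for Alpl (538 CPM). Because the nuclei were clustered on these same transcripts, levels of osteoblasts against other types are a description and were not tested.

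**Figure D1:**
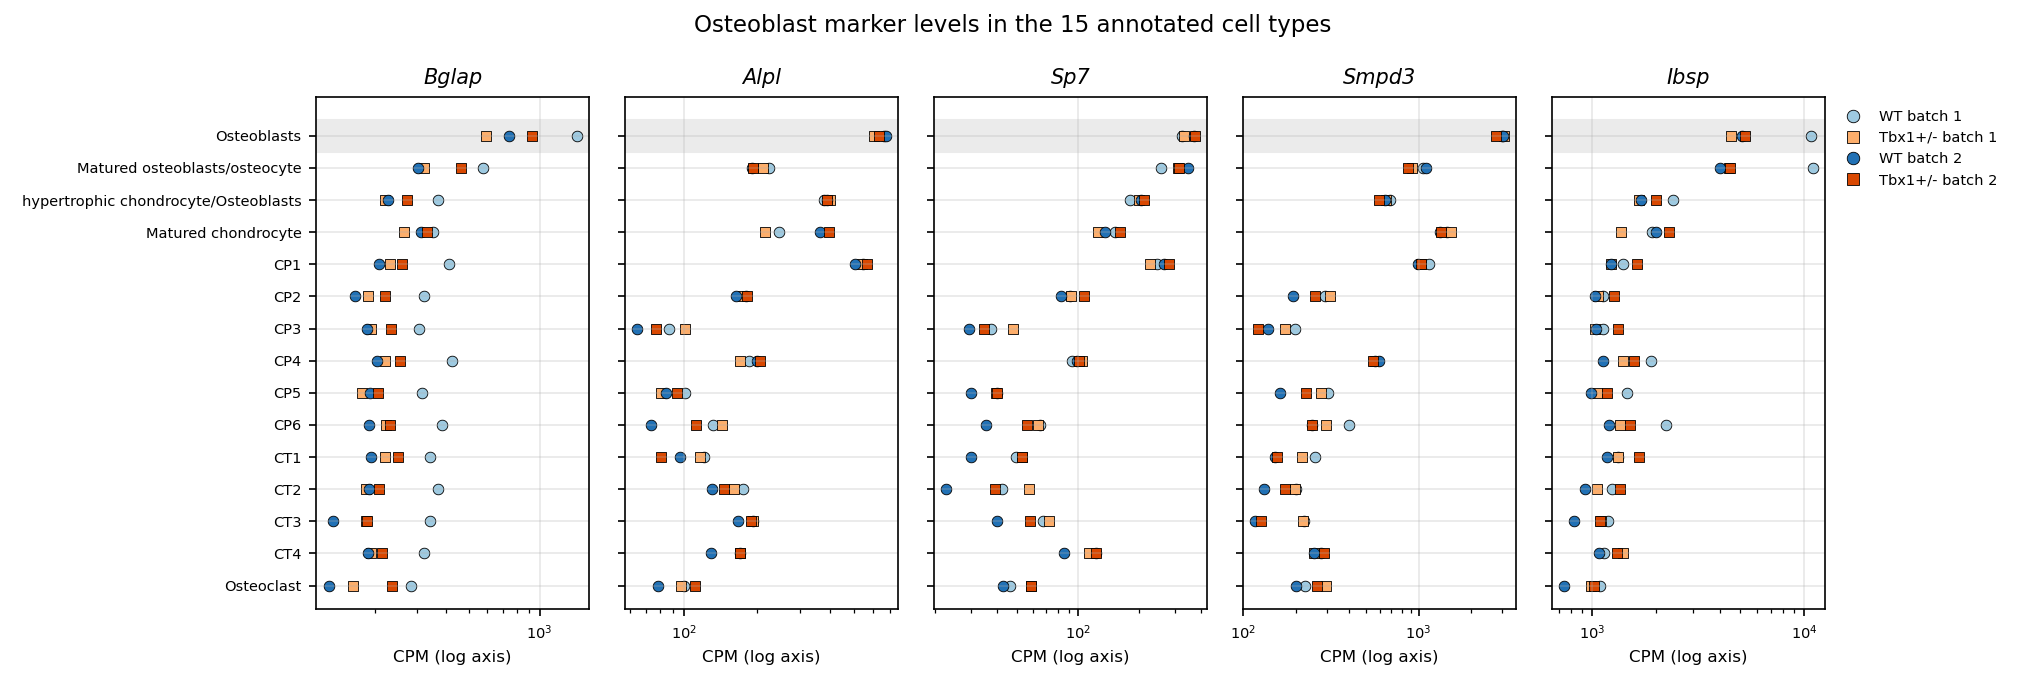
Levels of Bglap, Alpl, Sp7, Smpd3 and Ibsp in the 15 annotated cell types of the PTB, in CPM on a log axis, with 1 point for each library and the osteoblast row shaded. Osteoblasts had the highest Bglap, Alpl, Sp7 and Smpd3 in each library, while Ibsp in WT batch 1 was as high in matured osteoblasts.

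The transcription factors that direct the lineage were even between libraries. Runx2, the first factor of the lineage, was at 4471, 4608, 4771 and 4674 CPM in the order WT batch 1, Tbx1+/- batch 1, WT batch 2 and Tbx1+/- batch 2, but exceeded the other annotated nuclei of the same library by only 1.14 to 1.27 times, since CP1 reached 8806 CPM. Runx2 therefore marked the osteoblasts poorly within this bone, and Sp7, at 2.68 to 3.46 times the other nuclei, marked them better. Mef2c, a factor that drives osteocyte genes, was at 2888, 3018, 3187 and 3271 CPM and was higher in matured osteoblasts (4306 CPM). Tcf7, an effector of Wnt signalling, was at 80.2, 84.0, 87.6 and 81.0 CPM and was highest in osteoblasts in 4 of 4 libraries. Msx1 and Msx2 were too low to be tested.

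Genes of the matrix were more uneven, as 1 library stood above the rest. Col1a1, the main chain of type I collagen, was at 13717 CPM in WT batch 1, 8106 in Tbx1+/- batch 1, 7993 in WT batch 2 and 7580 in Tbx1+/- batch 2, against a mean of 2136 in osteoclasts. Ibsp, which encodes the mineral-nucleating bone sialoprotein, was at 10761, 4544, 5076 and 5282 CPM, against 959. WT batch 1 was thus the single high library in both, and the other 3 lay close together whatever their genotype. Genes that modify or fold collagen marked osteoblasts too, with Plod2 (a lysyl hydroxylase), Fkbp10 (a collagen chaperone) and Creb3l1 (a factor that activates collagen genes) highest of the 15 types in 4 of 4 libraries. Spp1 (osteopontin) and Tnc (tenascin-C) did not mark them, since Spp1 lay at 1027 to 2284 CPM and Tnc at 586 to 792 CPM, against 4827 and 3868 CPM in the class annotated hypertrophic chondrocyte/Osteoblasts, here called the hypertrophic class.

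Upstream sequence is shown for Bglap and Ibsp, both high in WT batch 1, to set a textbook target of Runx2 beside a second matrix gene. The sequences come from RefSeq on GRCm38.p6. For Bglap it is the 250 bases before the start site, chr3:88384467-88384716 on the minus strand. For Ibsp it is 134 bases of the same window that lie before the GENCODE gene start, chr5:104299037-104299170 on the plus strand. Capitals mark the core motif of Runx factors, TGTGGT or, on the other strand, ACCACA.
Bglap: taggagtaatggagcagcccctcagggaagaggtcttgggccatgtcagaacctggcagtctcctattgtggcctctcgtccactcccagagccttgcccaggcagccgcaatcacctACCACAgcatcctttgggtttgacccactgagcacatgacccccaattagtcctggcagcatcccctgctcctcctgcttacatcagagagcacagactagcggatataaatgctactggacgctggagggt
Ibsp: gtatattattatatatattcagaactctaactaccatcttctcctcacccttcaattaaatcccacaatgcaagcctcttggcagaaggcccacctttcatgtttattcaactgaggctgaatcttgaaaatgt
Bglap held 1 match, 132 to 127 bases before the start, and Ibsp held none. The 250-base windows of Pcolce, Serpinh1, Sparc and Omd held none either, while 4614 of 32851 RefSeq windows (14.0%) held the motif on one strand or the other. Those of Pcolce and Sparc lie inside the GENCODE gene. Of 8 matrix genes looked for, 6 had a window, and Col1a1 and Bglap2 had none. A match is a stretch of letters and not a measured site. Bglap and Bglap2 are near-identical neighbours on chromosome 3, and 56.1% of the 31-base words of the Bglap transcript also occur in Bglap2, so the split of UMIs between the 2 genes is uncertain.

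Of the enzymes and transporters of mineralisation, Smpd3, the neutral sphingomyelinase whose loss impairs mineralisation, was at 2974 CPM in WT batch 1, 3056 in Tbx1+/- batch 1, 3021 in WT batch 2 and 2756 in Tbx1+/- batch 2, or 5.96 to 7.40 times the other nuclei. Ifitm5, a bone-restricted membrane protein, was at 204, 90.5, 107 and 141 CPM and was highest in osteoblasts in 4 of 4 libraries. The 2 genes differed in their spread, as Ifitm5 followed the high WT batch 1 seen for Bglap and Ibsp, whereas Smpd3 did not. Genes of osteocytes were present at lower levels than in matured osteoblasts. Phex, an endopeptidase of phosphate balance, was at 1482, 1668, 1577 and 1661 CPM against 5817 in matured osteoblasts, and Dmp1, a matrix protein of osteocytes, at 291, 239, 175 and 207 CPM against 1761. Sost, the Wnt inhibitor sclerostin made by osteocytes, was at 6.13 to 7.46 CPM against 66.3, and a mean of 3.53 in osteoclasts. The osteoclast mean was 212 CPM for Phex and 82.1 CPM for Dmp1, below every osteoblast library.

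Most receptors and signals described here were as high or higher in another class. Pth1r, the receptor of parathyroid hormone, was at 593 to 661 CPM, and Lrp5, a Wnt co-receptor that governs bone mass, at 188 to 216 CPM, of which only Lrp5 was highest in osteoblasts in 4 of 4 libraries. Vdr, the vitamin D receptor, was at 225 to 292 CPM and was higher in the hypertrophic class (420 CPM). Tnfsf11, which encodes RANKL, was at 7.04, 9.32, 8.48 and 7.17 CPM, against a mean of 7.03 in osteoclasts and 61.8 in the hypertrophic class. Tnfsf11 was therefore not detectable above background in osteoblasts at this depth. Tnfrsf11b, which encodes osteoprotegerin, was at 34.9, 29.6, 29.0 and 32.9 CPM against 8.36 in osteoclasts, and Csf1, the macrophage growth factor, at 50.7 to 60.7 CPM against 208 in the hypertrophic class. Of the Wnt genes, Dkk1, an inhibitor, was at 70.2, 37.6, 38.0 and 39.9 CPM, and Lef1, a nuclear effector, at 81.8 to 87.9 CPM against a mean of 78.5 in osteoclasts and 1193 in CP4. All 16 cell cycle genes lay below the other annotated nuclei in each library, and Mki67, a marker of dividing cells, was at 31.9 to 45.1 CPM against a mean of 44.7 in osteoclasts.

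Genes that set osteoblasts apart from the other annotated nuclei were then sought without a list. The annotated nuclei cover connective tissue, cartilage, osteoblast and osteoclast classes. Immune cells and neurons, which the paper also describes in this bone, were therefore not part of the comparison. Among 3586 genes with at least 50 CPM in the osteoblasts of each library, 182 were at least 2-fold above all other annotated nuclei in each library and 113 at least 2-fold below. The 15 with the largest lowest ratio were Gm10629, Gm15987, Mamdc2, Adgrd1, Ano1, Col22a1, Clec2g, Mlip, Smpd3, Entpd3, Gngt2, Fstl4, Adamts18, Lipc and A930002C04Rik. The long noncoding RNA Gm10629 was at 240 CPM in WT batch 1, 213 in Tbx1+/- batch 1, 261 in WT batch 2 and 223 in Tbx1+/- batch 2, or 8.03 to 9.93 times the other nuclei. It lies at chr8:106283307-106300017 on the plus strand of GRCm38, inside Smpd3, which runs on the minus strand at chr8:106252548-106337988. Both genes were thus high in the same class, and how much of the Gm10629 count came from transcription across the Smpd3 locus was not tested. Gm15987 (chr6:128951204-128975029, minus strand) likewise lies inside Clec2g (chr6:128934381-128984707, plus strand). The 15 genes are therefore not all from separate loci. Ano1, a calcium-activated chloride channel, was at 516, 615, 627 and 607 CPM, or 7.18 to 8.93 times the others, and Col22a1, a collagen of tissue junctions, at 1029, 1200, 1204 and 1292 CPM, or 6.98 to 9.70 times. Matured osteoblasts came next for both, with a mean of 458 CPM of Ano1 against 591 in osteoblasts and 1051 CPM of Col22a1 against 1181. Osteoblasts were the highest of the 15 types in 4 of 4 libraries for 12 of the 15 genes, and matured osteoblasts had a higher mean for Adgrd1 (413 CPM), an adhesion receptor, Lipc (1020 CPM), the hepatic lipase, and Gngt2 (91.4 against 81.7 CPM), a G protein subunit.

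To ask how evenly these transcripts were spread over single nuclei, each nucleus was thinned to 2000 UMIs, which kept 1411 nuclei in WT batch 1, 1828 in Tbx1+/- batch 1, 1177 in WT batch 2 and 1272 in Tbx1+/- batch 2 and left out 45, 37, 21 and 22 shallower ones. Runx2 was detected in 98.2 to 98.8% of thinned osteoblasts against 55.2 to 59.1% of osteoclasts, and Smpd3 in 90.8 to 93.7% against 19.0 to 30.9%. Nearly every nucleus of the class thus carried this regulator and this enzyme. Alpl was detected in 58.5 to 64.4% of osteoblasts against 9.32 to 16.9% of osteoclasts, Sp7 in 46.4 to 52.9% against 6.25 to 11.4%, and Bglap in 51.1 to 66.7% against 23.8 to 43.3%. All 3 markers were above the background, with the smallest margin for Bglap. Matured osteoblasts differed by more Phex (98.3 to 100% of nuclei against 73.7 to 80.1% in osteoblasts) and less Smpd3 (47.8 to 59.1%) and Alpl (21.7 to 29.5%). The hypertrophic class differed by less Smpd3 (47.2 to 52.6%) and less Alpl (43.3 to 45.0%). Mki67 was detected in 4.16 to 7.39% of osteoblasts, below the 8.24 to 9.20% of osteoclasts, a class not shown to be free of dividing cells, so no statement on cycling is made from it.

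**Figure D2:**
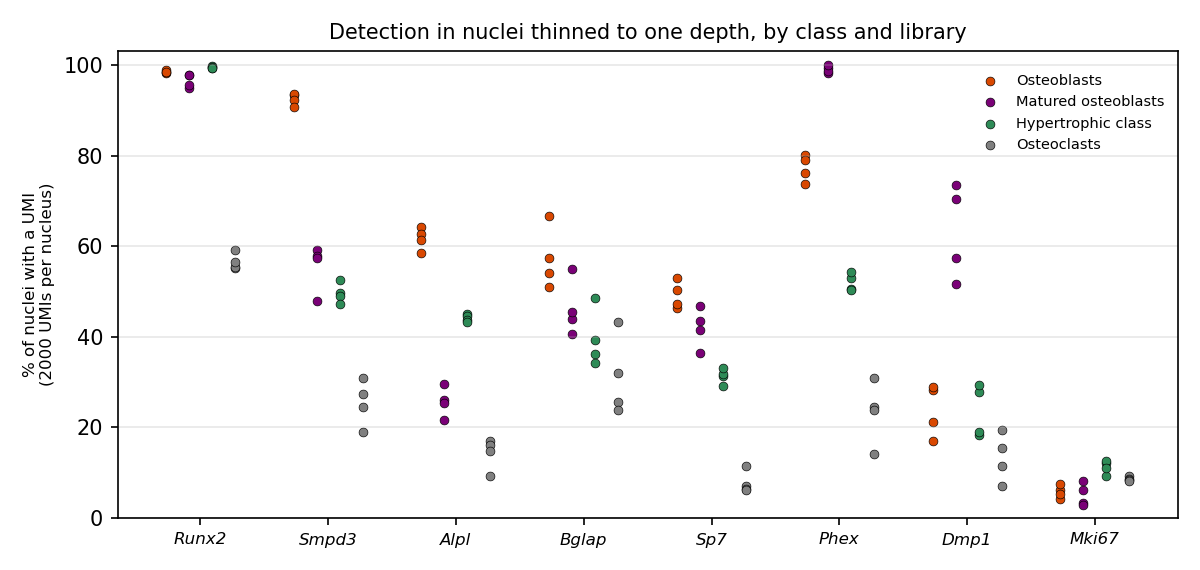
Percent of nuclei with at least 1 UMI of each gene after each nucleus was thinned to 2000 UMIs, for osteoblasts, matured osteoblasts, the hypertrophic class and osteoclasts, with 1 point for each library. Smpd3 and Alpl separated osteoblasts from matured osteoblasts in one direction and Phex and Dmp1 in the other.

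Among osteoblast nuclei, several secreted products were among the genes of largest spread. The Fano factor, the variance of thinned UMIs over their mean, is near 1 for counting noise alone and grows with level where nuclei differ, and the median over 5786 genes of its lowest value among libraries was 1.02. It was at least 2 in each library for 100 genes. The 15 genes with the highest lowest value included Col1a1 (21.5 to 34.3), Ibsp (14.4 to 36.9), Col1a2 (8.52 to 13.9), Slit2 (8.30 to 11.5), Col11a1 (6.12 to 7.50) and Tnc (4.24 to 5.31), besides Gm42418, which overlaps ribosomal RNA sequence, the nuclear RNA Malat1, and Lsamp, Il1rapl2, Pdzrn4, Eya4, Adarb2, Kcnb2 and Pde4d. Sp7 (1.05 to 1.19) was near the counting value, while Runx2 (4.14 to 4.68) ranked 16 by this measure, directly after these 15 genes. The most Bglap-rich 10% of nuclei held 46.1 to 52.0% of thinned Bglap UMIs, against 34.2 to 37.9% for Alpl in its own richest 10%. Bglap UMIs were thus more concentrated in their richest nuclei than Alpl UMIs, and the mean level, which differs between the genes, also moves this share. Nuclei with at least 10 Bglap UMIs were 7.51% of WT batch 1, 0.547% of Tbx1+/- batch 1, 2.38% of WT batch 2 and 4.09% of Tbx1+/- batch 2.

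Tbx1, the T-box transcription factor gene deleted in the mutants (chr16:18580979-18590671, minus strand, GRCm38), was examined first as a check on the genotype labels. In osteoblasts it was at 30.4 CPM in WT batch 1, 19.3 in Tbx1+/- batch 1, 30.2 in WT batch 2 and 29.2 in Tbx1+/- batch 2, from 176 to 231 UMIs. Tbx1+/- batch 1 was well below both WT libraries, and Tbx1+/- batch 2 was slightly below them. The log2 change was -0.34 (SE 0.22, edgeR adjusted p = 1.0), with -0.63 within batch 1 and -0.04 within batch 2. In the other annotated nuclei Tbx1 was at 40.6, 28.4, 42.2 and 37.5 CPM, which was lower in the Tbx1+/- library of each batch. Osteoclasts held 11.7, 6.99, 15.5 and 10.7 CPM, and CP6 had the highest level of the 15 types, with a mean of 81.8 CPM. Which part of the gene the mutant allele lacks is not given in the sources used here, and the position of reads was not examined. The level is therefore a limited check of the labels.

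No gene was called changed in Tbx1+/- osteoblasts. Of 15573 genes tested, 0 (0.0%) passed an adjusted p under 0.05 with a change of more than 1.5-fold in edgeR's quasi-likelihood test on UMI sums per library, and 0 passed in DESeq2. At an unadjusted p under 0.05, edgeR gave 66 genes higher (0.424%) and 126 lower (0.809%), and DESeq2 gave 36 in all. These fits held no batch term, so differences between batches entered their error. With a batch term edgeR gave 449 in all at that limit and still called 0. With 2 pools a genotype, a p that misses the threshold does not show that levels were equal. None of the members of the osteoblast lists passed in either direction, including 11 transcription factors, 15 genes of type I collagen and its processing, 14 of non-collagenous matrix, 10 of mineralisation and phosphate, 6 of osteocytes, 24 receptors, 8 signals to osteoclasts and 16 of the Wnt pathway. The median log2 change was 0.01 for the transcription factors, -0.01 for mineralisation, -0.02 for receptors, -0.03 for signals to osteoclasts, -0.04 for the Wnt genes and 0.09 for osteocyte genes, against 0.01 over all genes tested. The medians of collagen processing (-0.18) and non-collagenous matrix (-0.32) lay farther below that of all genes. Each of these list medians took both signs when single libraries were left out, with ranges from -0.76 to 0.13 for non-collagenous matrix, -0.41 to 0.05 for collagen processing, -0.27 to 0.15 for the Wnt genes, -0.17 to 0.09 for signals to osteoclasts and -0.08 to 0.13 for osteocyte genes.

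The genes of smallest unadjusted p with the same direction in both batches were of other kinds. The 6 lower were Kcnq3, Unc13c, Kcnrg, Slc35f4, Gm28153 and Bmp6, and the 6 higher were Agmo, Lrrc59, Gm47283, Cystm1, Natd1 and Tuba1c, all with an adjusted p of 1.0. Gm47283 lies on the Y chromosome, and the part of pool sex in its level was not tested. Kcnq3, a potassium channel subunit of neurons, was at 71.0 CPM in WT batch 1, 49.8 in Tbx1+/- batch 1, 69.4 in WT batch 2 and 44.3 in Tbx1+/- batch 2 (log2 change -0.59, SE 0.12, unadjusted p = 0.00218). The 2 groups did not overlap, as was so for 10.5% of all genes in the lower and 13.7% in the higher direction, and the connective tissue class CT4 held 1071 CPM of it. Lrrc59, a protein of the endoplasmic reticulum membrane, was at 60.7, 79.6, 56.9 and 78.8 CPM (log2 change 0.41, SE 0.11, unadjusted p = 0.00931). Slc35f4 was highest in osteoblasts in 4 of 4 libraries, at 5.00 to 8.27 times the other annotated nuclei. Its level was 13.1, 8.33, 12.8 and 6.78 CPM, from 52 to 98 UMIs (log2 change -0.79, SE 0.20, edgeR unadjusted p = 0.00845). Agmo, an enzyme that cleaves ether lipids, was at 11.6, 18.9, 12.7 and 20.3 CPM (log2 change 0.68, SE 0.17, unadjusted p = 0.00656), with a mean of 269 CPM in osteoclasts. Summed osteoclast markers in osteoblast nuclei were 1093, 995, 551 and 822 CPM, and the part of osteoclast RNA in the level of Agmo was not tested. Of the 24 receptors, Esr1, the oestrogen receptor, was the single one under an unadjusted p of 0.05, at 52.7, 69.0, 55.3 and 67.8 CPM (log2 change 0.33, unadjusted p = 0.0231), against 0.424% of all genes higher at that limit.

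The lower medians of the matrix lists rested on WT batch 1. In that library 13 of 15 collagen genes and 13 of 14 non-collagenous matrix genes had their highest level, as did 3675 of all 15573 genes tested. It exceeded each of the other 3 libraries by more than 1.5 times for 3 of the 15 (Col1a1, Serpinh1 and Pcolce) and 5 of the 14 (Bglap, Bglap2, Ibsp, Sparc and Omd), against 1.46% of all genes tested, and for 0 of 11 transcription factors. The same share of all genes was 0.828% for Tbx1+/- batch 1, 0.687% for WT batch 2 and 0.43% for Tbx1+/- batch 2. Sparc, the collagen-binding osteonectin, was at 3801 CPM in WT batch 1, 2318 in Tbx1+/- batch 1, 2110 in WT batch 2 and 2087 in Tbx1+/- batch 2, and Serpinh1, the collagen chaperone HSP47, at 776, 448, 383 and 430 CPM. The log2 change of Ibsp between genotypes was -0.71 (SE 0.35, adjusted p = 1.0), with -1.24 within batch 1 and 0.06 within batch 2, and that of Bglap -0.54 (SE 0.36, adjusted p = 1.0), with -1.29 and 0.33. The median of the non-collagenous list was -0.60 within batch 1 and 0.26 within batch 2, and 0.13 without WT batch 1. The contrast of matrix genes between WT and Tbx1+/- in batch 1 was therefore not seen in batch 2.

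Leaving out single libraries bore on the same genes. Without WT batch 2, which leaves WT batch 1 as the only WT library with its spread taken from the others, 33 genes were called, 1 higher and 32 lower, among them Ibsp (log2 change -1.16, edgeR adjusted p = 0.0101) and Col1a1 (-0.84, edgeR adjusted p = 0.0150). Without WT batch 1 there was 1 call, and Ibsp was at -0.07 and Col1a1 at -0.05. Values that were also highest in WT batch 1 include the mitochondrial share given above, summed erythroid markers and the free RNA of some genes but not of others. The mitochondrial share and the erythroid sum were next highest in Tbx1+/- batch 1, where Ibsp and Bglap were lowest. Summed erythroid markers were at 823 CPM in WT batch 1, 660 in Tbx1+/- batch 1, 490 in WT batch 2 and 439 in Tbx1+/- batch 2 in osteoblasts, with 5 of 6 genes highest in WT batch 1, and at 585, 506, 296 and 283 CPM in osteoclasts. Bglap was highest in WT batch 1 in 15 of 15 annotated types, with 283 CPM in osteoclasts of that library, 161 in Tbx1+/- batch 1, 126 in WT batch 2 and 236 in Tbx1+/- batch 2. Of the other genes counted in this way, Col2a1 was highest there in 14 of 15 types, Col1a1 in 9, Ibsp and Smpd3 in 8 each, Alpl and Pth1r in 5, Tbx1 in 3, and Runx2, Sp7, Bmp6 and Panx3 in 2. Summed collagen genes of osteoclasts were 5815 CPM in WT batch 1, 6349 in Tbx1+/- batch 1, 3319 in WT batch 2 and 4232 in Tbx1+/- batch 2. Their summed non-collagenous genes were 4590, 3967, 2467 and 3587 CPM in the same order and highest in WT batch 1. In matured osteoblasts Ibsp was at 10976, 4452, 4010 and 4470 CPM, again with WT batch 1 as the single high library. With osteoblasts limited to nuclei under 0.5% mitochondrial UMIs, which left 22, 69, 445 and 276 nuclei, the median of the non-collagenous list was -0.11 and that of the collagen list -0.13. The part of erythroid and free RNA in this result was not tested.

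**Figure D3:**
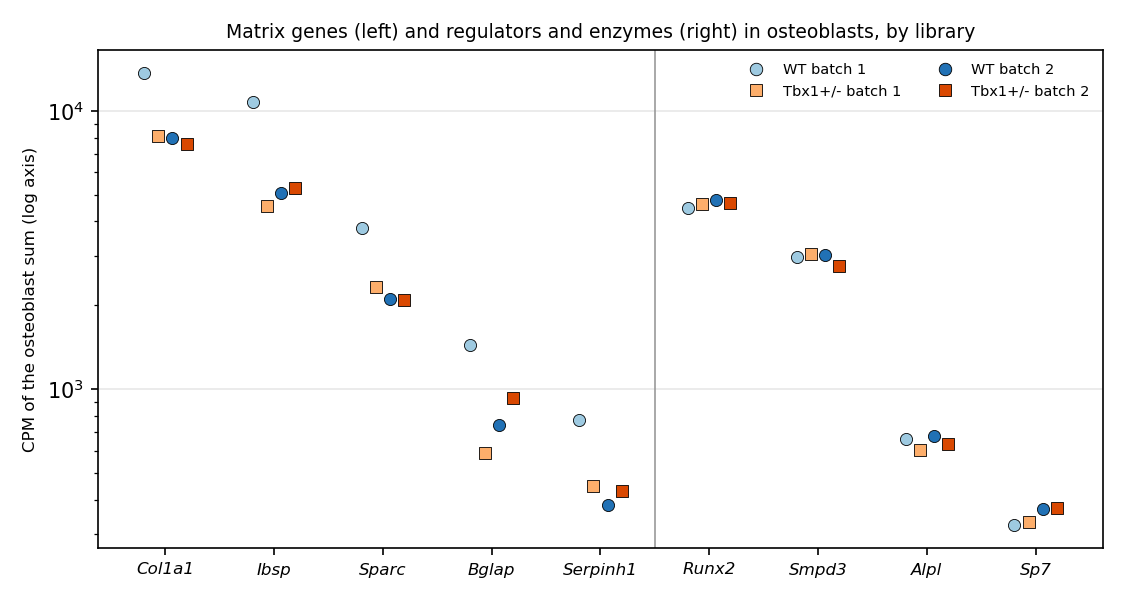
Osteoblast levels of 5 matrix genes (left) and 4 regulators and enzymes (right) in each library, in CPM on a log axis. WT batch 1 stood above the other 3 libraries for Col1a1, Ibsp, Sparc, Bglap and Serpinh1, and within or near their range for Runx2, Smpd3, Alpl and Sp7.

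The other gene lists differed in how far the batches went together. Genes of hypertrophic chondrocytes had a median log2 change of -0.30 (-0.89 within batch 1 and 0.44 within batch 2), with Ibsp and Spp1 as members of both this list and the matrix list. Chondrocyte genes had a median of -0.09 (-0.22 and 0.04) and cell cycle genes 0.07 (0.25 and -0.10). All 3 medians turned sign between the batches, and 0 members of these lists were called. Of the 14 chondrocyte genes, 10 were below the other annotated nuclei in each library, among them Sox9, the master factor of cartilage, at 10.4 to 23.5 CPM. The other 4 were above them in each library. Of these, Col11a1, a fibrillar collagen of cartilage, was at 8199, 8404, 8768 and 8441 CPM and 3.74 to 4.49 times the other nuclei, with Col11a2 at 1.89 to 2.38 and Sox6 at 1.05 to 1.23 times. Col2a1, the main cartilage collagen and the last of the 4, was at 1361, 1006, 903 and 901 CPM, up to 1.44 times the other nuclei. After thinning, Col2a1 was detected in 65.5 to 76.7% of osteoblasts, 47.3 to 64.9% of the hypertrophic class and 31.5 to 57.9% of osteoclasts. Of the markers of other cells, Schwann and glial genes had a median of 0.58 (0.65 and 0.46, with 4 of 4 above 0 in the fit and 3 of 4 within batch 2) and muscle genes -0.15 (-0.03 and -0.89). Without single libraries the median ranged from -2.59 to 1.54 for muscle, from -0.76 to 0.23 for hypertrophic, from -0.34 to 0.23 for chondrocyte and from -0.12 to 0.18 for cell cycle genes, so that each took both signs. Summed glial markers were at 205 CPM in WT batch 1, 325 in Tbx1+/- batch 1, 123 in WT batch 2 and 168 in Tbx1+/- batch 2 in osteoblasts, and at 285, 409, 208 and 244 CPM in osteoclasts. Summed glial transcripts were thus higher in the Tbx1+/- library of each batch in both cell types, while the median of the list ranged from 0.083 without Tbx1+/- batch 1 to 0.96 without WT batch 1.

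**Figure D4:**
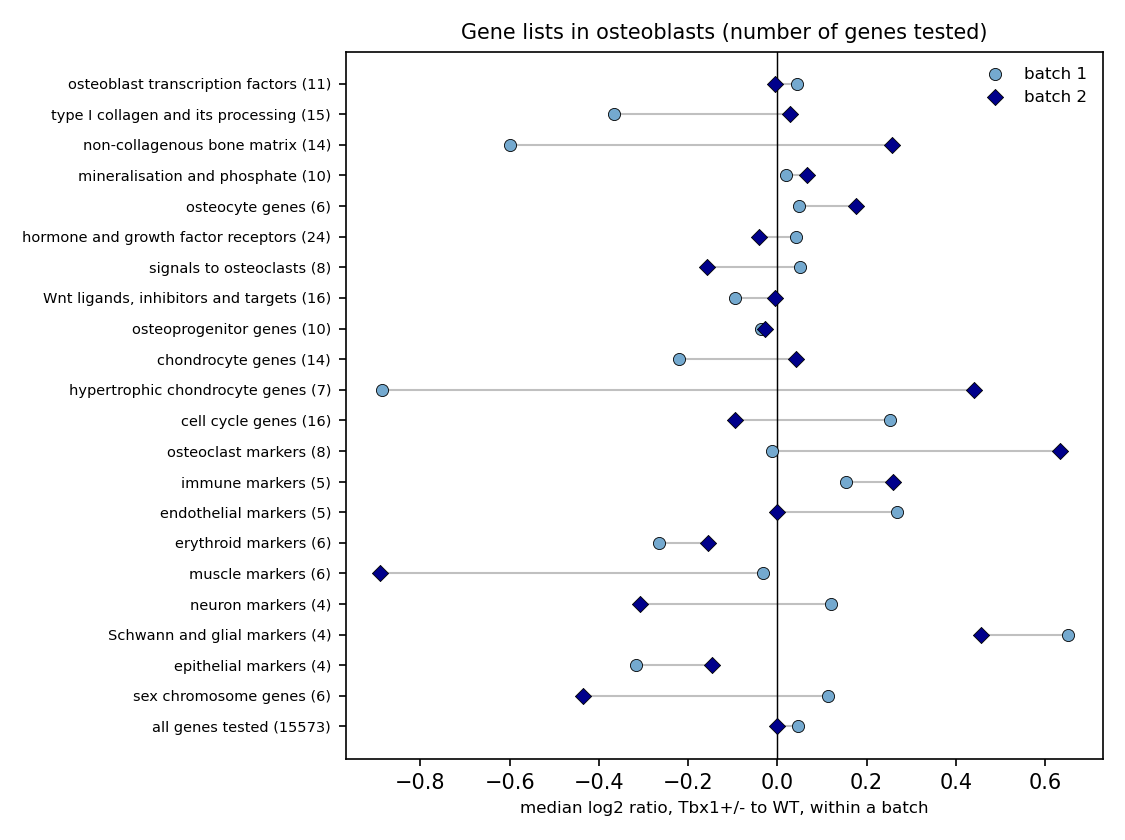
Median log2 ratio of Tbx1+/- to WT over the tested genes of each list in osteoblasts, within batch 1 (circles) and batch 2 (diamonds), with the number of genes tested in parentheses. Non-collagenous matrix and hypertrophic chondrocyte genes lay below 0 in batch 1 and above 0 in batch 2, while transcription factors and mineralisation genes lay near 0 in both.

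Batches were compared in the same way. Between batch 2 and batch 1, in a fit with genotype, 31 of 15573 genes were called (0.199%), with 3 higher in batch 2 (0.0193%) and 28 lower (0.18%). The count depended on the nuclei kept, with 0 calls among nuclei of at least 2000 genes (1771 genes at an unadjusted p under 0.05), 2 under 0.5% mitochondrial UMIs and 276 without the nuclei with most UMIs. At an unadjusted p under 0.05, 4.99% were higher and 9.15% lower. The lower genes included 5 of 6 muscle markers and 2 of 4 Schwann and glial markers. Tnnt3, a troponin of fast muscle, was at 33.0 CPM in WT batch 1, 27.4 in Tbx1+/- batch 1, 4.31 in WT batch 2 and 3.13 in Tbx1+/- batch 2 (log2 change -3.02, SE 0.17, adjusted p = 0.0180). Acta1, Myl1 and Tpm2, further muscle genes, fell by 3.24, 3.01 and 1.45 on the log2 scale. In osteoclasts, which are not muscle cells, Tnnt3 was at 25.9, 26.5, 3.10 and 0.37 CPM and Acta1 at 104, 94.1, 12.8 and 5.53 CPM, also lower in both libraries of batch 2. Summed muscle markers were at 214, 223, 49.2 and 28.2 CPM in osteoblasts. In osteoclasts their sum was much higher and fell much less, at 987, 851, 865 and 668 CPM, so the markers did not all move alike there. Col3a1, a fibrillar collagen of soft tissue, fell too, at 542, 506, 223 and 208 CPM (log2 change -1.28, SE 0.09, adjusted p = 0.0240) against 530, 397, 152 and 131 CPM in osteoclasts, as did Igfbp4, a binding protein of insulin-like growth factors, at 132, 142, 51.4 and 62.1 CPM (-1.27). Of the osteoblast lists, 1 of 14 non-collagenous matrix genes (Postn, the fibrous tissue protein periostin, -1.57) and 1 of 16 Wnt genes (Sfrp2, a secreted Wnt modulator) were called, both lower, and 0 of the 11 transcription factors. Xist, the RNA of the inactive X chromosome, was at 490, 569, 920 and 1192 CPM (log2 change 0.99, SE 0.10, adjusted p = 0.0419) and rose together with its antisense RNA Tsix and with C430049B03Rik. The Y-linked Ddx3y was at 67.2, 70.2, 50.9 and 35.5 CPM, and the number of each sex in a pool is not given in the sources used here.

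Whether a genotype difference was particular to osteoblasts was tested as the interaction of genotype and class, with all other annotated nuclei as the second class. Of 18862 genes, 1 was called (0.0053%), and at an unadjusted p under 0.05 there were 298 higher (1.58%) and 508 lower (2.69%). The gene was Bmp6 (chr13:38345107-38500302, plus strand), which encodes a bone morphogenetic protein that signals to osteogenic cells. It was at 15.4 CPM in WT batch 1, 9.87 in Tbx1+/- batch 1, 20.9 in WT batch 2 and 11.5 in Tbx1+/- batch 2 in osteoblasts, from 88 to 160 UMIs, and at 44.1, 55.6, 57.0 and 65.8 CPM in the other nuclei. It was thus lower in Tbx1+/- osteoblasts and higher in the other Tbx1+/- nuclei, in both batches. The interaction was -1.06 on the log2 scale (SE 0.14, adjusted p = 0.0377), and the change within osteoblasts alone was -0.78 (SE 0.22, unadjusted p = 0.0115, adjusted p = 1.0). Osteoclasts held 14.2, 10.3, 19.4 and 14.7 CPM, so the level in osteoblasts was about that of the free RNA background, which was also lower in the Tbx1+/- library of each batch, and connective tissue class CT2 had 529 CPM. Without the 8% of nuclei with most UMIs the interaction was -0.82 (adjusted p = 1.0), and without Tbx1+/- batch 2 it was -1.06 (adjusted p = 0.115). The interactions of Ibsp (-0.63) and Col1a1 (-0.48) were not called (adjusted p = 0.456 and 0.497).

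The abundance of osteoblasts was compared as their share of annotated nuclei. Osteoblasts made up 14.6% of nuclei in WT batch 1 (Wilson 95% interval 13.9 to 15.3%), 21.4% in Tbx1+/- batch 1 (20.6 to 22.3%), 20.0% in WT batch 2 (19.0 to 21.1%) and 20.2% in Tbx1+/- batch 2 (19.2 to 21.2%). WT batch 1 was again the library apart, and the other 3 lay within 2 percentage points. The log2 difference of Tbx1+/- from WT was 0.28 (exact two-sided permutation test, p = 0.333, the smallest p that 2 against 2 libraries allow), with 0.55 within batch 1, 0.01 within batch 2 and 0.05 without WT batch 1. In edgeR's test of nuclei per class over 7 classes, osteoblasts had a log2 change of 0.27 (SE 0.20, adjusted p = 0.383). With osteoblasts, matured osteoblasts and the hypertrophic class as the only denominator, the difference was -0.03 (exact permutation p = 1.0). Without connective tissue and osteoclasts it was 0.22 (exact permutation p = 0.667), with 0.52 within batch 1 and -0.09 within batch 2. Over all barcodes with at least 1000 detected genes it was 0.36 (exact permutation p = 0.333), with 0.67 within batch 1 and 0.04 within batch 2.

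Neighbouring stages were set against osteoblasts as ratios. For each osteoblast there were 0.176 matured osteoblasts in WT batch 1, 0.154 in Tbx1+/- batch 1, 0.122 in WT batch 2 and 0.163 in Tbx1+/- batch 2, a log2 difference of 0.11 (exact permutation p = 1.0) with -0.19 within batch 1 and 0.42 within batch 2. Hypertrophic class nuclei were 0.863, 0.720, 0.586 and 0.781 for each osteoblast, a difference of 0.08 (exact permutation p = 1.0) with -0.26 and 0.41 within the batches. The 2 WT libraries enclosed both Tbx1+/- libraries in each ratio, so the genotypes overlapped. Chondrocyte progenitors were 3.02, 1.69, 2.02 and 1.94 for each osteoblast, a difference of -0.45 (exact permutation p = 0.333) with -0.84 and -0.06 within the batches and -0.16 without WT batch 1. As shares of all annotated nuclei, matured osteoblasts were 2.57% in WT batch 1, 3.30% in Tbx1+/- batch 1, 2.44% in WT batch 2 and 3.29% in Tbx1+/- batch 2, and the hypertrophic class 12.6, 15.4, 11.7 and 15.7%. Both shares were higher in the Tbx1+/- library of each batch. They passed edgeR's test of nuclei per class at its threshold of 0.1 (log2 change 0.40, SE 0.08, and 0.36, SE 0.08, adjusted p = 0.0744 each), but not with the batch as a term, where the changes had the same direction (adjusted p = 0.70 each). More nuclei of a type and better recovery of its nuclei cannot be told apart in such counts.

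**Figure D5:**
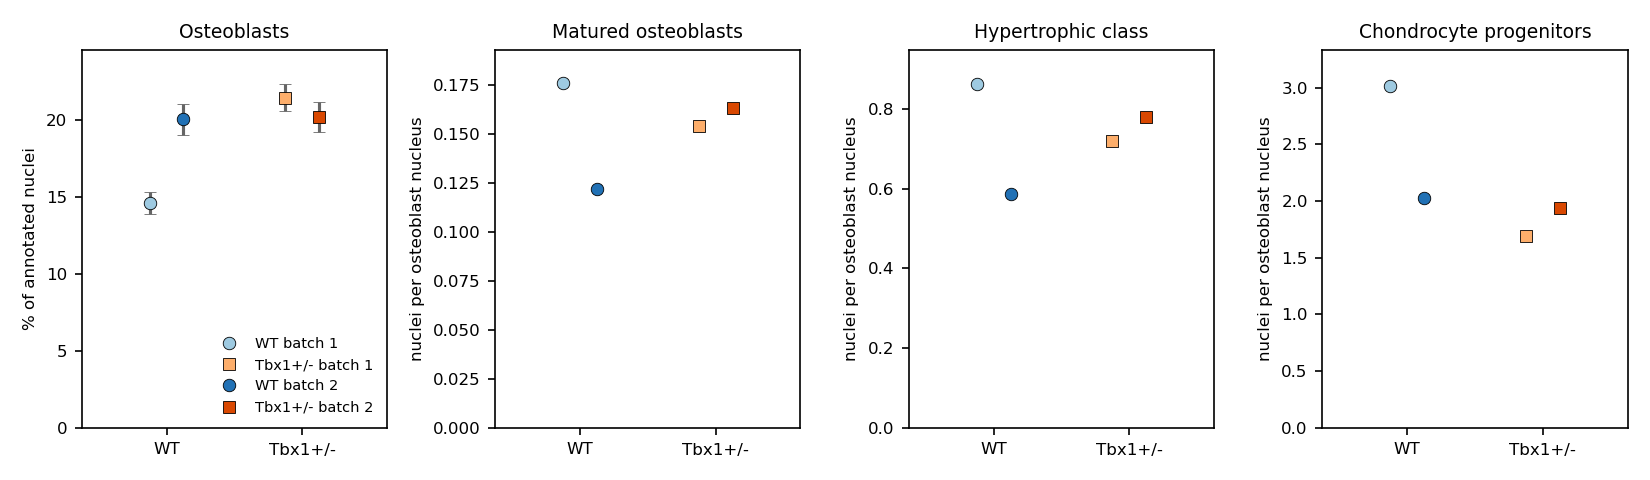
Osteoblasts as a percent of annotated nuclei, with Wilson 95% intervals, and the number of matured osteoblasts, hypertrophic class nuclei and chondrocyte progenitors for each osteoblast, with 1 point for each library and every axis starting at 0. WT batch 1 had 14.6% osteoblasts against 20.0 to 21.4% in the other 3 libraries, and the most nuclei for each osteoblast of the other stages shown here.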

How the data were processed

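The authors isolated nuclei from frozen, pulverised PTB and made 10x 3′ libraries. The deposited matrices hold raw UMI counts by gene and barcode; per the methods, the authors ran Cell Ranger 7.0.0 on mm10 with introns counted, and the counts precede their SoupX correction. Cell types are the authors' deposited annotation, made by clustering, label transfer and manual curation by marker genes. Matched nuclei were kept without a further filter, and no doublet caller was run. UMIs were summed per library over osteoblasts. Genotype, batch and the interaction were tested with edgeR 4.0.16 (filterByExpr, TMM, quasi-likelihood; R 4.3.3), with DESeq2 1.42.0 as an alternative; adjusted p-values are Benjamini-Hochberg values over all genes tested. Within-batch ratios used a pseudocount of 1 CPM. Shares were tested by exact permutation (scipy 1.17.1). The scripts were tested on simulated counts.

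Members and gene lists were chosen with earlier results of these data known. 1 gene of the lists is not reported here. Named genes were list members, the 15 genes with the largest lowest ratio to other nuclei, the 15 with the largest lowest Fano factor, and up to 6 genes in each direction by p with at least 10 CPM. The labels number the libraries of each genotype, and the number was taken as the batch: deviations of the same-numbered libraries from their genotype means correlated over 15573 genes (r = 0.371, across genes, which are not independent). Replicates are pools of 5 mice. Intervals cover counting error only. Alternatives were other size factors, no filter, at least 2000 genes a nucleus, leaving out the 8% of nuclei with most UMIs or each library, a replicate block and, added after seeing the data, nuclei under 0.5% mitochondrial UMIs.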

Additional observations from a re-analysis of the deposited data

Results flagged for a closer look

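Bmp6 was the 1 gene whose genotype difference in osteoblasts was called different from that in the other annotated nuclei of the PTB, by edgeR's quasi-likelihood test of the interaction. The interaction was -1.06 on the log2 scale (edgeR adjusted p = 0.0377). In both batches, levels in Tbx1+/- mice were lower in osteoblasts and higher in the pooled sum of the other nuclei, which joins classes of unlike level. The osteoblast level, 9.87 to 20.9 CPM, was about that of osteoclasts of the same libraries, 10.3 to 19.4 CPM. Osteoclasts, a part of that pooled sum, were also lower in the Tbx1+/- library of each batch. The part of free RNA in the difference was not tested.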

How the results depend on the processing

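No gene was called between genotypes in osteoblasts with other size factors (195 at an unadjusted p under 0.05), no filter (417), DESeq2 (36), at least 2000 genes a nucleus (222), without the nuclei with most UMIs (137), under 0.5% mitochondrial UMIs (111) or with the replicate block (449), so the block changed no genotype call. Leaving out each library gave 0 to 33 calls. The batch count of 31 became 15 with other size factors, 82 without a filter, 51 in DESeq2, 0 with at least 2000 genes a nucleus (1771 at an unadjusted p under 0.05), 276 without the nuclei with most UMIs and 2 under 0.5% mitochondrial UMIs; the cause was not tested. The interaction count of 1 became 16 without a filter, 0 without the nuclei with most UMIs (742 at an unadjusted p under 0.05) and 1 to 30 without each library; the interaction of Bmp6 was -0.82 (adjusted p = 1.0) without the nuclei with most UMIs, and -1.08 to -1.03 without each library. The log2 difference in the share of osteoblasts turned to -0.032 with the osteogenic denominator. It was 0.22 without connective tissue and osteoclasts and 0.36 over all barcodes with at least 1000 detected genes. Without each library, matured osteoblasts per osteoblast ranged from -0.15 to 0.38 and hypertrophic nuclei per osteoblast from -0.20 to 0.35, Bglap from -0.95 to 0.019, Bglap2 from -1.14 to 0.15, Sparc from -0.82 to 0.041, Serpinh1 from -0.85 to 0.17, Sp7 from -0.10 to 0.10 and Runx2 from -0.059 to 0.024. Sp7 also turned to -0.026 and Runx2 to 0.0023 without the nuclei with most UMIs, and under 0.5% mitochondrial UMIs, a limit that left 22, 69, 445 and 276 osteoblasts, Sp7 turned to -0.16. With every library kept, 151 log2 changes of named genes across these alternatives kept their direction and side of the threshold, and these 3 turned. With every library kept, 137 medians of gene lists stayed within 1 SD of the 2 batch medians and 17 did not. Under 0.5% mitochondrial UMIs hypertrophic genes turned from -0.30 to 0.26 and chondrocyte genes from -0.09 to 0.089. Other lists that turned include Wnt genes (-0.04 to 0.13), signals to osteoclasts (-0.03 to 0.18) and osteocyte genes (0.09 to -0.06). Cell cycle genes moved from 0.07 to 0.40 and muscle genes from -0.15 to -1.06. Depth limits genes near the osteoclast level, such as Tnfsf11 and Bmp6, and 2 pools a genotype limit every test of genotype.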
